A study of Homo sapiens with 6 samples.

Results

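Metallothioneins and the proteins that move zinc across membranes were followed in LX-2, an established line derived from human hepatic stellate cells, the liver cells that make scar matrix. The gene set was chosen by name, with earlier results of these data known. It holds the metallothioneins MT1E, MT1F, MT1G, MT1M, MT1X and MT2A, the zinc sensor MTF1, the zinc exporter SLC30A1 and the zinc importer SLC39A14. Of these 9 genes, 8 had a row among the 32750 Ensembl gene IDs, matched through their GENCODE release 44 symbols, and all 8 had enough reads to be tested. MT1G is not analysed here. Of the 6 libraries, 3 (control replicates 1 to 3) came from wild-type cells given a non-targeting siRNA, and 3 from cells labelled as a transient ATP6AP1 knockdown made with an siRNA against that gene, an accessory subunit of the V-ATPase proton pump. All 6 are of the same cell line, the submitters call the 3 in a group independent biological replicates, and no source used here gives the time between transfection and harvest, or a treatment behind the word activated in the study's title. The comparison asks which transcripts differ once ATP6AP1 has been targeted.

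Metallothioneins are very small, cysteine-rich proteins of the cytosol that hold zinc and copper, and also toxic metals such as cadmium, through the sulfur of their cysteines. When free zinc rises, MTF1 binds it, enters the nucleus and activates metallothionein genes and SLC30A1 through short DNA sites called metal response elements. SLC30 proteins (also called ZnT) carry zinc out of the cytosol, to the outside or into vesicles, and SLC39 proteins (also called ZIP) carry it into the cytosol. In liver, metallothioneins and SLC39A14 are known as genes of the acute phase response, in which the cytokine IL6 acts through STAT3.

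Total counts ran from 15644464 to 19656533 per library. The target of the siRNA went against the label: ATP6AP1 stood at 116, 117 and 129 CPM in the control libraries and at 143, 146 and 140 CPM in the libraries labelled ATP6AP1 siRNA (CPM denotes counts scaled to a common normalised library total). Its log2 fold change was 0.25 (SE 0.0608, edgeR, adjusted p = 0.00425), or 0.14 (adjusted p = 0.0695) once the trend of fold changes on gene span was removed. Each direction given here is therefore that of libraries labelled ATP6AP1 siRNA, not of a measured depletion. Of 10 markers of stellate cells or fibroblasts, 9 had a row and 8 were at 1 CPM or more in every library. Of 8 hepatocyte markers, 7 had a row and 2, SERPINA1 and TF, were at 1 CPM or more in every library, while ALB was at 0 in the control libraries and at 0.107 to 0.121 CPM in the others. The summed level of the stellate and fibroblast markers, mostly VIM, was itself lower, 4130 to 4580 CPM against 6850 to 7450 CPM in the controls. Summed hepatocyte markers were 9.82 to 11.6 CPM in the control libraries and 8.32 to 9.11 CPM in the others. The macrophage sum (7 of 7 markers with a row, 2 of them at 1 CPM or more in every library, mostly CD68) was 60.8 to 72.8 against 58.2 to 64.0 CPM. The endothelial sum (5 of 6 with a row, 1 at that level, TEK) was 14.9 to 16.8 against 11.7 to 14.4 CPM, and the cholangiocyte sum (5 of 5 with a row, 2 at that level) 26.5 to 32.2 against 29.5 to 38.1 CPM. In bulk samples of the same cell line, fewer cells with a marker and less of its RNA per cell cannot be told apart. The part of these marker differences in the results was not tested.

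The coding sequences of the 5 metallothioneins are shown first, because their likeness decides how well reads can be assigned to one gene. They are read from GENCODE release 44 (GRCh38, plus strand, chromosome 16), 5′ to 3′ from start to stop codon, with the cysteine codons TGC and TGT in capitals.
MT2A: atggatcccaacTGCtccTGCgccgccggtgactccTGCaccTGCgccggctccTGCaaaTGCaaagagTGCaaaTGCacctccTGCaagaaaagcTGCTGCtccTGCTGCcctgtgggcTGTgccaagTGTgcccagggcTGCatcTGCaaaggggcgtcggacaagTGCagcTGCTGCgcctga
MT1E: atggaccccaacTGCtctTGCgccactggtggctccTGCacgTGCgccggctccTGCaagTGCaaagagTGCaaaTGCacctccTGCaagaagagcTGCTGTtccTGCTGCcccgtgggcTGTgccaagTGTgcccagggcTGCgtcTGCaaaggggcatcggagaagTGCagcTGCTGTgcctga
MT1X: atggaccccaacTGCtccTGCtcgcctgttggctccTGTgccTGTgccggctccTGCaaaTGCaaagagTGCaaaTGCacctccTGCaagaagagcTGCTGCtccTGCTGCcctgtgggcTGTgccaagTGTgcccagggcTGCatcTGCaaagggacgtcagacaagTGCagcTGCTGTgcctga
MT1F: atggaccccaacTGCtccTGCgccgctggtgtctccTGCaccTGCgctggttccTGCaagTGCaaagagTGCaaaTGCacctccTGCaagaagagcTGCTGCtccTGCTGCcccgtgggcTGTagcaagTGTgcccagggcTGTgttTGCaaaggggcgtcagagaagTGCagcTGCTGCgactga
MT1M: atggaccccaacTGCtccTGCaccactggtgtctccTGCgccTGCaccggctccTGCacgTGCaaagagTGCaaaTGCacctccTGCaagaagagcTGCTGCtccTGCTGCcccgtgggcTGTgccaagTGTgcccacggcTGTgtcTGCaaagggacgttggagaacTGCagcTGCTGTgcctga

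Each of the 5 was 186 bases long, with 61 codons before the stop codon, of which 20 encode cysteine, in the same positions. Between pairs, 88.7% (MT1F and MT1X) to 92.5% (MT1E and MT2A, MT1E and MT1M, and MT1X and MT2A) of the bases were identical, that is, 14 to 21 of the 186 bases differed. Shared windows were counted over the canonical transcripts, which reach beyond the coding sequence. Of the 50-base windows, 11.1% of MT2A, 10.3% of MT1E, 6.12% of MT1F and 14.6% of MT1M occur in a transcript of another gene. None of their 100-base windows do. MT1X is the exception, with 51% of its 50-base and 22% of its 100-base windows shared, mostly with a long noncoding RNA (ENSG00000259827) that overlaps it on the same strand and has no row among the genes analysed here. Counts of MT1X are therefore uncertain as counts of MT1X alone. The canonical transcripts of SLC30A1 and SLC39A14 share 0% of their 50-base windows and MTF1 0.9%.

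Promoters are shown next, because MT2A and MT1X both fell, though by different amounts, and both are known targets of MTF1. RefSeq (GRCh38.p14) promoter entries matched 4 of the 9 genes, MT1X, MT2A, MTF1 and SLC30A1, and not MT1E, MT1F, MT1G, MT1M or SLC39A14. Each line gives the 250 bases before the transcription start, 5′ to 3′ on the gene's strand. Capitals mark the core of the metal response element, searched as TGCACNC and TGCGCNC on both strands.
MT2A, chr16:56608334-56608583, plus strand: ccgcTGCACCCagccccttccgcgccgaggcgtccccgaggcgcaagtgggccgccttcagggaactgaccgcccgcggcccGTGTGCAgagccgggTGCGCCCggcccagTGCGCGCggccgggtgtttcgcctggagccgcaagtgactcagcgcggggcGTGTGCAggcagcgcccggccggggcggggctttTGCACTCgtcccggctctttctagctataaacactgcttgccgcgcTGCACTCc
MT1X, chr16:56682220-56682469, plus strand: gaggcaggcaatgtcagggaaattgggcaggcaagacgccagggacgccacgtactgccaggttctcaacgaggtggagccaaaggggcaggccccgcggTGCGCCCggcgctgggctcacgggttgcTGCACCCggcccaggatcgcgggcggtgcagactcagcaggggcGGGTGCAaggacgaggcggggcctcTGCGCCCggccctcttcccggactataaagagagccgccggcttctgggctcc
SLC30A1, chr1:211579162-211579411, minus strand: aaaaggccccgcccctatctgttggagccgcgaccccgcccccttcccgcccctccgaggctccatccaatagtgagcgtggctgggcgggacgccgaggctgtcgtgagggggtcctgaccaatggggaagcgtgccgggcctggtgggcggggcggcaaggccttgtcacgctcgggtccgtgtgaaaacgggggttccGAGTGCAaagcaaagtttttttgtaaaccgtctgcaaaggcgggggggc

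The MT2A window held 7 such cores and the MT1X window 4, with no overlap among them. Of 35114 promoter windows of the same length, 24.8% held at least 1 core, 0.37% at least 4 and 0.0313% (11 windows) at least 7. SLC30A1, at 1 core, sat with the 24.8%, and the MTF1 window held 0. MT2A also had 1 match to the AP-1 motif TGACTCA, 104 to 98 bases before the start (4.2% of windows hold one), outside the metal response cores. Both metallothionein windows held a TATAAA match (10.7% of windows), beginning 29 bases before the start in MT2A and 30 in MT1X. A match describes the letters and does not show binding in these cells.

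In the libraries labelled ATP6AP1 siRNA the metallothioneins were lower and the zinc sensor and both transporters were higher. Of the 8 genes, 4 metallothioneins fell (MT2A, MT1E, MT1X and MT1F), MTF1, SLC30A1 and SLC39A14 rose, and MT1M did not pass the test. Over all 15372 tested genes, 53.3% passed (26.7% raised and 26.6% lowered), so 7 of 8 passing has to be read against a series in which most genes did. The median log2 fold change was -0.47 over the 5 metallothioneins and 0.21 over the other 3 genes, against -0.0043 over all tested genes. In 7 of the 8 genes all libraries of one group lay beyond all of the other, as in 59.5% of all tested genes (29.8% higher and 29.7% lower).

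**Figure D1:**
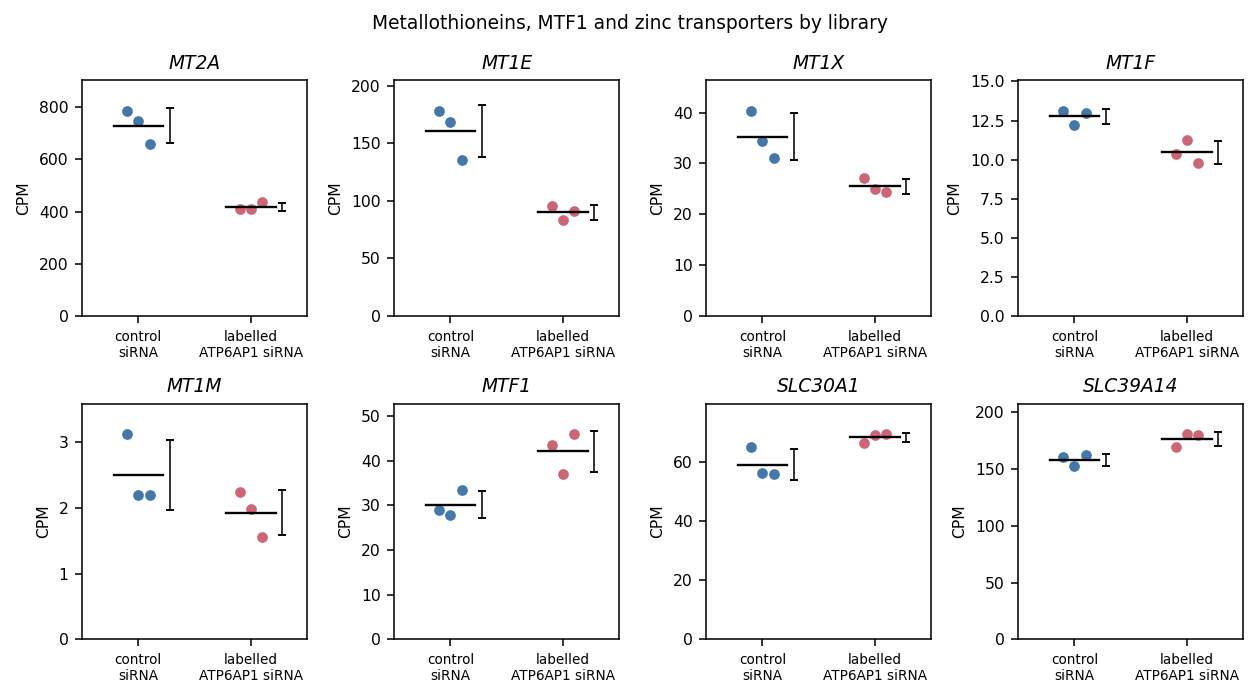
CPM (normalised) of the 8 genes in each library, one point per library, with the mean as a horizontal line and the SD over 3 libraries as a bar beside it; each panel has its own axis from 0. The groups are separate in 7 panels, with metallothioneins lower and MTF1, SLC30A1 and SLC39A14 higher on the right, and overlap in that of MT1M.

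MT2A (ENSG00000125148, GRCh38 chromosome 16, 56608584 to 56609497, protein-coding) gave the most metallothionein reads. It had 785, 746 and 658 CPM in control replicates 1 to 3 and 409, 410 and 435 CPM in the libraries labelled ATP6AP1 siRNA, from raw counts between 6753 and 13909. The lowest control library was well above the highest of the other group. From a mean of 729 ± 65.3 CPM the level fell to 418 ± 14.9 CPM (SD, n = 3 each), 1.74-fold lower with a 95% interval from 1.58 to 1.93 (quasi-likelihood F test in edgeR, Benjamini-Hochberg adjusted p = 7.57e-07). Among all tested genes, 13.4% had a larger absolute log2 fold change, and MT2A was more abundant in CPM than 98.8% of them.

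MT1E (ENSG00000169715, chromosome 16, 56625475 to 56627112), the next most abundant metallothionein, had 178, 168 and 136 CPM in the control libraries and 95.6, 83.1 and 91.3 CPM in those labelled ATP6AP1 siRNA. Here too the groups were apart. The means, 161 ± 22.2 and 90.0 ± 6.33 CPM (SD, n = 3 each), gave a 1.78-fold lower level (95% interval 1.55 to 2.05, edgeR adjusted p = 7.56e-06). As for MT2A, control replicate 3 was the lowest of the controls. The log2 fold change of MT1E was -0.84, and went to -0.92 without that library and to -0.74 without control replicate 1.

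MT1X (ENSG00000187193, chromosome 16, 56682470 to 56684196) had 40.3, 34.5 and 31.1 CPM in the control libraries and 27.1, 25.0 and 24.4 CPM in the libraries labelled ATP6AP1 siRNA. The groups were apart, though the gap between them was narrower than in MT2A or MT1E. Its log2 fold change was -0.47 (SE 0.0963, edgeR adjusted p = 0.00116), a 1.38-fold lower level, subject to the shared sequence given above.

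MT1F (ENSG00000198417, chromosome 16, 56657731 to 56660698) had 13.1, 12.2 and 13.0 CPM in the control libraries and 10.3, 11.3 and 9.76 CPM in the others. The groups were close without overlapping. Its log2 fold change was -0.29 (SE 0.102, edgeR adjusted p = 0.0303), the smallest among the metallothioneins that passed. That call was lost when any library other than ATP6AP1 siRNA replicate 2 was left out, and with library size as the only scaling, where the log2 fold change was -0.15 (adjusted p = 0.231).

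MT1M (ENSG00000205364, chromosome 16, 56632659 to 56633981) was the scarcest, with 37 to 53 counts per control library and 29 to 37 for the labelled siRNA. In CPM these were 3.12, 2.20 and 2.19 against 2.24, 1.99 and 1.55, and the groups overlapped. The log2 fold change was -0.38 with a 95% interval from -0.90 to 0.14 (edgeR adjusted p = 0.204), an interval that holds both 0 and the value of MT2A (-0.80).

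The sum of the 5 metallothioneins was 1020, 963 and 839 CPM in the control libraries and 544, 532 and 562 CPM in the libraries labelled ATP6AP1 siRNA. The spread between control libraries was much wider than in the other group, but all 3 stood above it. The mean went from 941 ± 92.1 to 546 ± 15.4 CPM (SD, n = 3 each), a ratio of 1.72, and no p is given for a sum over genes chosen with results known. As a share of all counts, without any normalisation, the sum went from 0.0897% to 0.0572%.

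Counts of MT2A per count of each MT1 gene showed how evenly the family fell, since a ratio within a library does not depend on scaling. There were 4.41, 4.43 and 4.85 MT2A counts per MT1E count among controls against 4.28, 4.93 and 4.77 for the labelled siRNA, so this ratio overlapped between groups. Per MT1X count there were 19.5, 21.6 and 21.1 against 15.1, 16.4 and 17.8, which did not overlap. Per MT1F count there were 59.9, 61.0 and 50.7 against 39.5, 36.4 and 44.6, again without overlap. Per MT1M count there were 252 to 339 against 183 to 280, which overlapped. MT2A thus fell more than MT1F, and more than MT1X as counted. The MT1X ratio is subject to the shared sequence given above, since those counts are uncertain as counts of MT1X alone. The proportion of MT2A to MT1E was 4.57 ± 0.248 in the controls and 4.66 ± 0.342 for the labelled siRNA (SD, n = 3 each). With 3 libraries a group an exact permutation test could not go below 0.10, and none was run on these ratios.

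**Figure D2:**
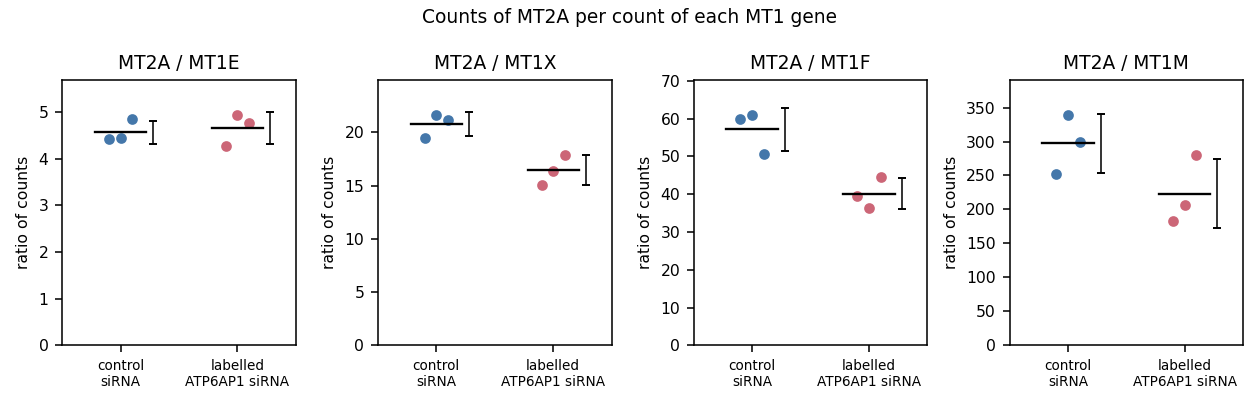
Counts of MT2A divided by counts of MT1E, MT1X, MT1F and MT1M in each library, one point per library, with the mean as a horizontal line and the SD over 3 libraries as a bar. The ratio to MT1F falls from 50.7 or more to 44.6 or less and that to MT1X from 19.5 or more to 17.8 or less, while those to MT1E and MT1M overlap between the groups.

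MTF1 (ENSG00000188786, chromosome 1, 37809574 to 37859592, minus strand), the zinc-sensing transcription factor, moved the other way. It had 28.9, 27.9 and 33.5 CPM in the control libraries and 43.5, 37.0 and 45.9 CPM in those labelled ATP6AP1 siRNA. Every library of the second group was above every control. MTF1 rose from 30.1 ± 2.99 to 42.1 ± 4.60 CPM on average (SD, n = 3 each), 1.40-fold higher with a 95% interval from 1.21 to 1.62 (edgeR adjusted p = 0.000846). A gene on the opposite strand (ENSG00000235673) overlaps MTF1, and no source used here states whether the counting used strand.

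SLC30A1 (ENSG00000170385, chromosome 1, 211571568 to 211579161, minus strand), the exporter of the plasma membrane, had 65.0, 56.2 and 55.7 CPM in the control libraries and 66.3, 69.0 and 69.2 CPM in the others. Control replicate 1 lay just under the lowest library of the second group, so the groups touched without overlapping. The log2 fold change was 0.21 (SE 0.0721, edgeR adjusted p = 0.0262), a 1.16-fold difference. It no longer passed without control replicate 2 (adjusted p = 0.0963), control replicate 3 (0.0754) or ATP6AP1 siRNA replicate 2 (0.0870), nor once the trend of fold changes on gene span was removed, where the value was 0.11 (adjusted p = 0.235).

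SLC39A14 (ENSG00000104635, chromosome 8, 22367278 to 22434129), an importer that carries zinc, iron and manganese, had 160, 152 and 162 CPM in the control libraries and 169, 181 and 180 CPM in the others. All 3 of the second group were above the controls, by a narrow margin. The pseudogene RPL21P77 overlaps it on the opposite strand. Its log2 fold change was 0.16 (SE 0.0569, edgeR adjusted p = 0.0324), a 1.12-fold difference, the smallest of the 8 genes. The call was lost without control replicate 2 (adjusted p = 0.112), ATP6AP1 siRNA replicate 2 (0.132) or ATP6AP1 siRNA replicate 3 (0.0593). Of all tested genes, 73.1% had a larger absolute log2 fold change.

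Levels of different genes were compared per kilobase of the canonical transcript (RPKM here), since the metallothionein transcripts are 398 to 425 bases long, except that of MT1E at 746 (its other isoforms differ in length), while those of SLC39A14, SLC30A1 and MTF1 are 4663, 5893 and 7937 bases. In the control libraries the order was MT2A (1819 ± 163 RPKM), MT1E (215 ± 29.8), MT1X (87.4 ± 11.6), SLC39A14 (33.9 ± 1.11), MT1F (30.0 ± 1.12), SLC30A1 (10.0 ± 0.891), MT1M (6.29 ± 1.34) and MTF1 (3.80 ± 0.377; SD, n = 3 each). No neighbours in this order overlapped. In the libraries labelled ATP6AP1 siRNA, MT2A stood at 1042 ± 37.1 RPKM and the order was kept down to SLC30A1, while MTF1 (5.31 ± 0.580 RPKM) and MT1M (4.84 ± 0.870 RPKM) overlapped at the bottom. Per length, MT2A made up 84.3% of the 5 metallothioneins in the control libraries and 83.0% in the others. That share and the RPKM of MT1E depend on the 746-base transcript used for MT1E. Without scaling to length, MT2A made up 77.6% of metallothionein counts in the control libraries and 76.6% in the others.

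**Figure D3:**
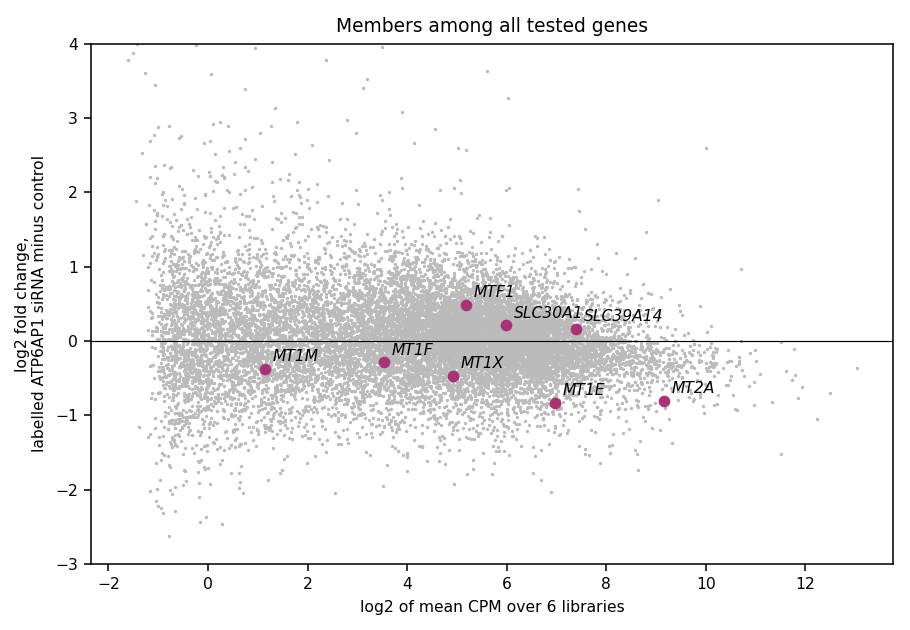
Log2 fold change (libraries labelled ATP6AP1 siRNA minus control) against log2 mean CPM over 6 libraries, for all 15372 tested genes in grey, 6 of which lie outside the plotted range, with the 8 genes in purple. MT2A and MT1E lie in the lower part of the cloud at their abundance, and SLC30A1 and SLC39A14 near its middle.

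Short transcripts were also lower in the same libraries. Of 279 tested protein-coding genes with a canonical transcript under 700 bases, 38.7% fell and 8.6% rose, with a median log2 fold change of -0.17. Among the 12693 longer ones 28% fell and 29.3% rose, with a median of 0.0023. MT2A, MT1X, MT1F and MT1M are themselves among the shorter, and MT1E, at 746 bases, is among the longer. With the trend on transcript length and GC content removed, MT2A was at -0.70 and MT1E at -0.77 (edgeR adjusted p = 5.45e-09 and 2.05e-08), MT1X at -0.33 (adjusted p = 0.00318) and MT1F at -0.17 (adjusted p = 0.182). MTF1 was at 0.61 in the same fit. Library size as the only scaling raised the median log2 fold change of all tested genes by 0.14, and left MT2A at -0.67, MT1E at -0.70 and MT1X at -0.33, all past the test.

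**Figure D4:**
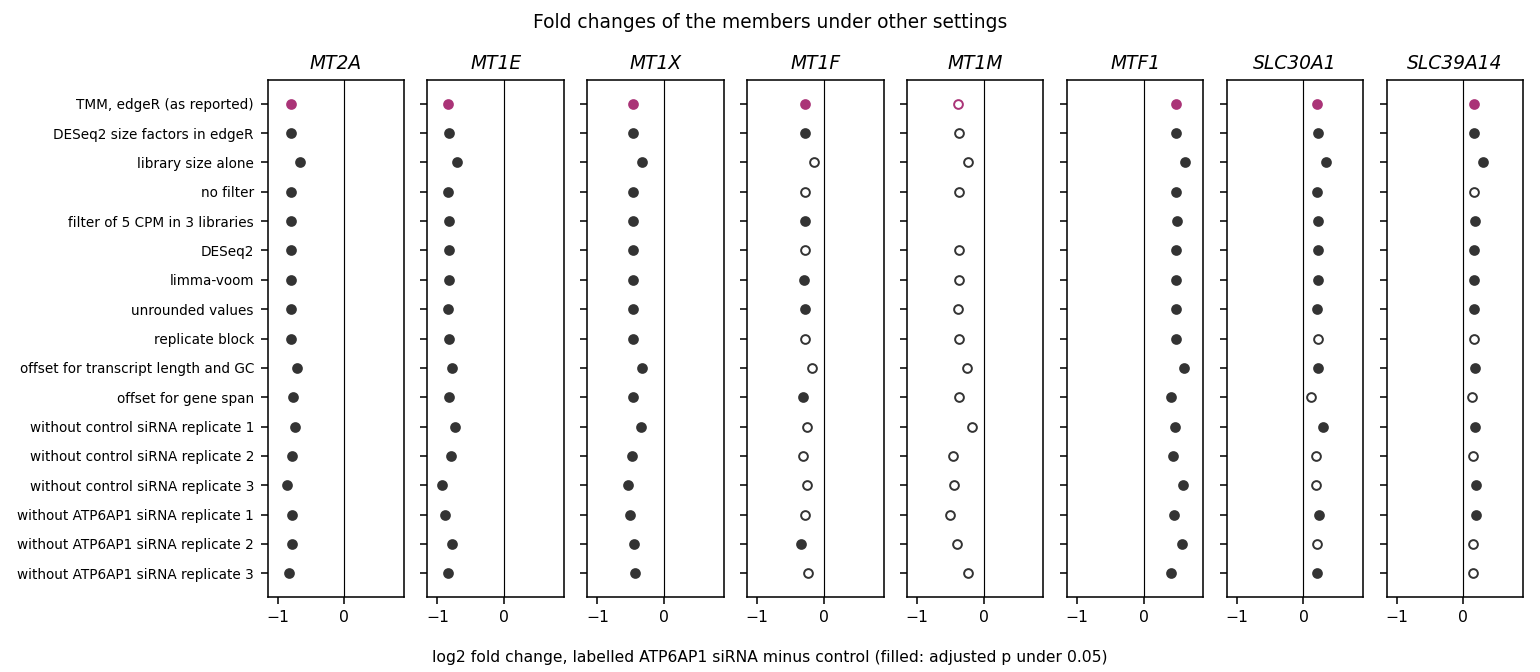
Log2 fold change (libraries labelled ATP6AP1 siRNA minus control) of the 8 genes as reported (purple, top) and under 16 other settings (black), with filled points where the adjusted p was under 0.05. All points of a gene lie on one side of 0. MT2A, MT1E, MT1X and MTF1 are filled throughout, MT1F, SLC30A1 and SLC39A14 in part, and MT1M is open throughout and missing under the filter of 5 CPM.

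The other zinc transporters went both ways. Of the 15 tested genes of the SLC30 and SLC39 families besides SLC30A1 and SLC39A14, 4 rose, 4 fell and 7 did not pass, so 53.3% passed, the same share as over all tested genes, with a median log2 fold change of -0.0026. Another 6 had at most 5 counts in any library and were not tested. Of the other metallothionein genes and pseudogenes, MT1A, MT1B, MT3 and MT1JP had a row, with at most 11 counts in a library, and none was tested.

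Among the SLC30 genes, SLC30A3 and SLC30A5 rose, SLC30A9 fell and 3 did not pass (SLC30A4, SLC30A6 and SLC30A7). SLC30A3, known for loading zinc into synaptic vesicles of neurons, had 2.00, 1.66 and 1.60 CPM in the control libraries and 4.90, 6.93 and 4.99 CPM in the libraries labelled ATP6AP1 siRNA. It was scarce in both, but the groups were well apart, with a log2 fold change of 1.67 (SE 0.207, edgeR adjusted p = 2.08e-05). SLC30A5, which carries zinc into the secretory pathway, rose by 0.22 on the log2 scale (adjusted p = 0.00926), from 82.3 ± 1.70 to 96.1 ± 5.73 CPM. Its adjusted p was 0.0523 without ATP6AP1 siRNA replicate 2 and 0.133 with the trend on gene span removed. SLC30A9, a zinc exporter of mitochondria, was at -0.16 (adjusted p = 0.0425), and lost its call under 10 of 16 alternatives, among them the removal of any one library except ATP6AP1 siRNA replicate 3, with adjusted p up to 0.789.

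Among 9 tested SLC39 genes besides SLC39A14, SLC39A10, SLC39A11 and SLC39A13 fell, SLC39A9 and SLC39A3 rose (SLC39A3 at 0.29, named after its value was seen) and 4 did not pass. SLC39A10, an importer of the cell surface whose gene is repressed by MTF1 in mouse, had 56.1, 51.5 and 50.2 CPM in the control libraries and 23.8, 25.7 and 31.5 CPM in the others. The groups were far apart, with a 1.94-fold lower level (edgeR adjusted p = 3.59e-06), the largest fall among the 15 transporters. SLC39A13, which releases zinc from vesicles and is needed for normal connective tissue, fell by 0.58 on the log2 scale (adjusted p = 0.000455), from 34.5 ± 1.82 to 23.1 ± 3.80 CPM. SLC39A11 fell by 0.64 on the log2 scale (adjusted p = 7.12e-05), but with the trend on gene span removed it was at -0.13 (adjusted p = 0.230). SLC39A9 rose by 0.28 (adjusted p = 0.00120). SLC39A8, a close relative of SLC39A14 that was named after its value was seen, was at 25.2 and 25.1 CPM in the 2 groups (log2 fold change -0.0047, adjusted p = 0.969).

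**Figure D5:**
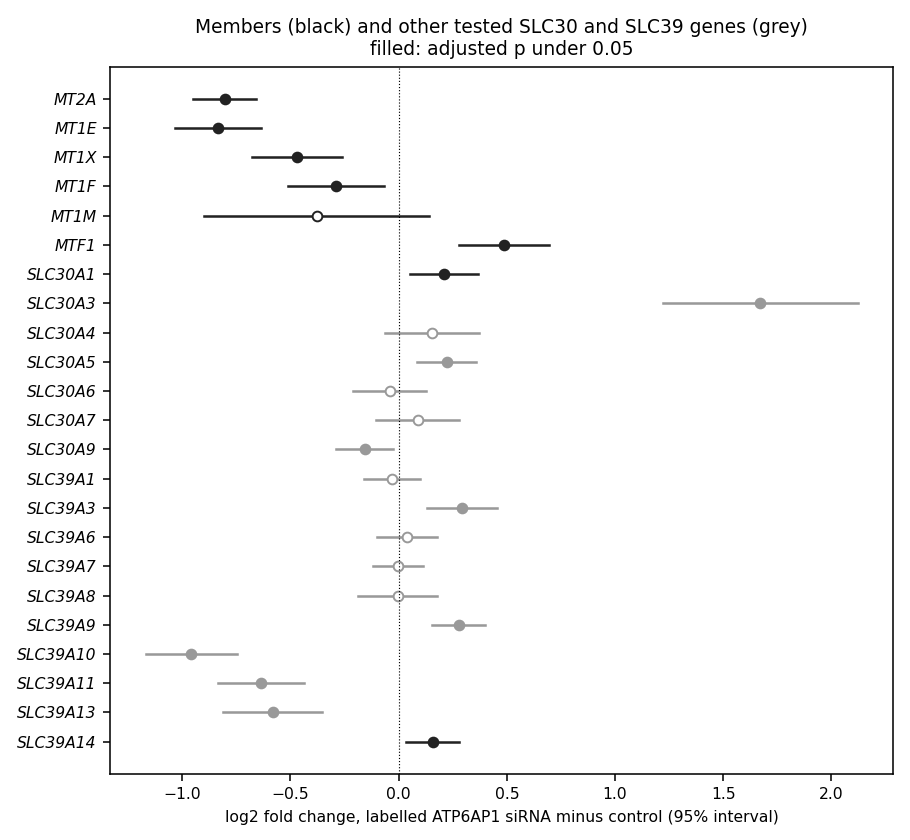
Log2 fold change (libraries labelled ATP6AP1 siRNA minus control) with its 95% interval for the 8 genes (black) and the 15 other tested SLC30 and SLC39 genes (grey), filled where the adjusted p was under 0.05. Of the grey genes 4 are filled on each side of 0, with SLC30A3 at 1.67 and SLC39A10 at -0.96 as the extremes.

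Other genes reported as MTF1 targets, some of them only in mouse, did not share one direction. The list includes SLC39A10, which MTF1 represses in mouse, so its members need not move together. Of 8 tested, 3 rose, 3 fell and 2 did not pass, so 75% passed, against 53.3% of all tested genes (26.7% raised and 26.6% lowered). Their median log2 fold change was 0.025, against -0.0043 over all tested genes. PGF, a growth factor related to VEGF, rose by 1.18 on the log2 scale (edgeR adjusted p = 3.82e-05), from 4.64 ± 0.123 to 10.6 ± 2.17 CPM. GCLC, the catalytic subunit of an enzyme of glutathione synthesis, rose by 0.33 (adjusted p = 0.00210). CSRP1, a cysteine-rich LIM protein, was at -0.28 (adjusted p = 0.00121), with 0.0503 under library size alone. SLC39A10 is the other gene of this list named by rule. SLC40A1, given below with manganese, is also on this list and rose.

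For manganese, which SLC39A14 also carries, 2 of 6 tested transport genes rose and 2 fell (66.7% passed, against 53.3% of all tested genes), with a median log2 fold change of -0.046. TMEM165, a Golgi protein needed for manganese supply, was at -0.54 (edgeR adjusted p = 4.61e-06) and the Golgi calcium and manganese pump ATP2C1 at -0.34 (adjusted p = 0.000472), the latter with an adjusted p of 0.0850 once the span trend was removed. The iron exporter SLC40A1 rose by 0.64 (adjusted p = 0.00256) and ATP13A1 by 0.39 (adjusted p = 0.00904, and 0.0665 with the span trend removed).

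Copper, the other metal held by metallothioneins, gave 3 raised and 5 lowered of 16 tested genes, with a median log2 fold change of -0.084. The 50% that passed lay close to the 53.3% of all tested genes. CCS, the chaperone that delivers copper to SOD1, rose by 0.60 (edgeR adjusted p = 3.51e-05). STEAP3, a metal reductase of endosomes, fell by 0.82 (adjusted p = 3.05e-06), CUTA by 0.72 (adjusted p = 3.80e-07) and CUTC by 0.49 (adjusted p = 0.000995). STEAP3 shares 10.8% of its 50-base and 9.71% of its 100-base windows with STEAP3-AS1.

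Heavy metals induce metallothioneins together with genes of the oxidative and heat stress responses, of which 3 of 12 tested rose and 4 fell, with a median log2 fold change of -0.088. The 58.3% that passed lay close to the 53.3% of all tested genes. The 4 that fell had the lowest adjusted p and are named here, while GCLC, given above, is among the 3 that rose. TXNRD1, a thioredoxin reductase, fell by 0.83 on the log2 scale (edgeR adjusted p = 1.25e-07), from 691 ± 8.83 to 389 ± 21.1 CPM. SLC7A11, the cystine importer, fell by 1.28 (adjusted p = 1.17e-06) and NQO1, a quinone reductase, by 0.63 (adjusted p = 2.29e-06). HSPA1A was at -0.59, which is uncertain because 75.1% of its 50-base windows are shared, chiefly with HSPA1B. For NQO1, 21% of the 50-base and 16.1% of the 100-base windows occur in transcripts of other genes, and for SLC7A11 9.29% and 7.07%. HMOX1, a classic heavy metal response gene, was at -0.13 and did not pass (named after its value was seen).

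Glucocorticoids are another known inducer of MT2A, and their response list had 3 of 10 tested genes raised and 4 lowered (70% passed, against 53.3% of all tested genes), with a median log2 fold change of -0.10. The receptor NR3C1 had 113 CPM in all 3 control libraries and 60.3, 66.2 and 71.8 CPM in those labelled ATP6AP1 siRNA, with a log2 fold change of -0.77 (edgeR adjusted p = 1.19e-06). TSC22D3, a glucocorticoid-induced gene, rose by 0.87 (adjusted p = 7.89e-05), while ERRFI1 fell by 0.31 (adjusted p = 0.000698) and CRISPLD2 by 0.33 (adjusted p = 0.00203). In the list of IL6 and STAT3 signalling, 2 of 8 rose, 1 fell and 5 did not pass, with a median log2 fold change of 0.12. The 37.5% that passed compares with 53.3% of all tested genes, and 5 of the 8 passed with library size alone, with no filter, or with the trend on transcript length and GC removed. IL6 rose by 2.85 on the log2 scale (adjusted p = 5.17e-09), STAT3 was at 0.20 (adjusted p = 0.0198) and JAK1 at -0.46 (adjusted p = 4.30e-05). STAT3 lost its call without control replicate 2 (adjusted p = 0.0984) or ATP6AP1 siRNA replicate 1 (0.0590), and JAK1 with the span trend removed (0.0877).

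The genes whose log2(CPM + 1) over the 6 libraries followed MT2A most closely, by Pearson's r among 11191 genes with a symbol and a mean of at least 5 CPM, were SAYSD1, TMTC2 and RASA1, each with an r that rounds to 0.999. Those nearest to SLC39A14 were SYNE2 (0.998), TUT7 (0.998) and ZNF415 (0.997). With only 6 libraries in 2 groups such values are common: 2416 genes had an r over 0.9 with MT2A and 1165 with SLC39A14.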

How the data were processed

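RNA was enriched on oligo(dT) beads and sequenced as paired ends, per the labels' protocols. Per the submitters' processing notes, the tools were HISAT2, featureCounts, Trimmomatic, FastQC and DESeq2, on GRCh38 (hg38), with no versions named. No source used here states the annotation, the strand setting or how reads with several alignments were counted, which matters for genes as alike as the metallothioneins. The authors deposited estimated counts (expected counts) per gene, 12.3 to 13.9% of them not whole in a library, which were rounded here. Of 32750 IDs, 21947 had a GENCODE release 44 symbol.

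Genes were kept with filterByExpr (15372) and tested in R 4.3.3 by the quasi-likelihood F test of edgeR 4.0.16, with TMM factors (0.949 to 1.06), group as the term, and Benjamini-Hochberg adjustment over all tested genes at 0.05. The common dispersion was 0.00475. Only the edgeR fit was tried on simulated counts, which had a common dispersion and far fewer changed genes than were called here. Within groups, libraries were further apart than counting error gives (2.65 to 5.99 chi-square units per gene). Intervals of fold changes are at 95%.

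Members and lists were chosen with earlier results of these data known. Named genes were all members, ATP6AP1, up to 4 called members of each list with the lowest adjusted p, and 3 genes nearest to MT2A and to SLC39A14. Outside this rule, SLC39A3, SLC39A8 and HMOX1 were named after their values were seen, and cell type markers were named from a list. Alternatives were DESeq2 1.42.0 and its size factors, library size alone, other filters, limma-voom (limma 3.58.1), unrounded values, a replicate block, each library left out, and offsets (mgcv) for transcript length and GC or gene span.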

Additional observations from a re-analysis of the deposited data

How the results depend on the processing

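Under 16 alternatives no gene among the 8 changed direction, and 106 of 127 values kept their side of the threshold. MT2A, MT1E, MT1X and MTF1 passed in all of them. With a library left out, MT2A ranged from -0.85 to -0.73 and MT1E from -0.92 to -0.74. MT1X ranged from -0.53 to -0.35 and MTF1 from 0.42 to 0.59 in those fits. MT1F no longer passed with library size alone (log2 fold change -0.15), no filter (-0.29), DESeq2 (-0.29), the replicate block (-0.29) or the offset for transcript length and GC (-0.17), and ranged from -0.34 to -0.24 with a library left out. SLC30A1 did not pass with the replicate block (0.21) or the offset for gene span (0.11), with 0.19 to 0.30 over left-out libraries. SLC39A14 did not pass with no filter (0.16), the replicate block (0.16) or the offset for gene span (0.13), with 0.14 to 0.19 over left-out libraries. The cause was not tested. Deviations of same-numbered libraries correlated at -0.0879, -0.0291 and -0.102, and those of differently numbered libraries at -0.01 to 0.0974. Such small values cannot show whether replicates were handled in pairs. The replicate block changed no other call of the 8 genes.

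The log2 ratio of summed metallothioneins was -0.65 with library size alone, and ranged from -0.84 to -0.71 over left-out libraries. Called members of the IL6 and STAT3 list numbered 5 in place of 3 with library size alone, with no filter and with the offset for length and GC, and 2 to 4 over left-out libraries. Those of the SLC30 list numbered 1 in place of 3 with the offset for gene span, and 1 to 3 over left-out libraries (1 without ATP6AP1 siRNA replicate 2). Genes called over all tested genes numbered 6861 to 8087 with a library left out, 8349 with library size alone and 8193 as reported; library size alone put 67.2% of calls on the raised side, against 50.2%. MT1M was not tested under the filter of 5 CPM, and its low counts limit what can be said of it.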
